A study of Homo sapiens with 8 samples.

Results

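Far intergenic peaks were peaks of poly(A) 3′-end sequencing whose summit lay more than 20 kb from every gene of any type in GENCODE release 44. They were chosen by position alone, on chromosomes 1 to 22 and X, and chromosome 2 from 14.5 to 17.5 Mb was left out. Of 152887 peaks on these chromosomes, 2104 met the rule, which is 1.38%. The list held 153624 peaks in all. The cells were Kelly, a human neuroblastoma line, and Kelly E9R, a derivative line whose CDK12 carries a substitution of the cysteine that THZ531 binds. THZ531 blocks the kinases CDK12 and CDK13, which phosphorylate RNA polymerase II, by a covalent bond. Kelly cells were kept in DMSO (2 libraries) or in 400 nM THZ531 (2 libraries) for 6 h, and so were Kelly E9R cells (2 libraries each). This dose is the one in the labels, whereas the study's methods name another for these lines. The reads of all 8 libraries were merged before 1 list of peaks was called, without strand and without a value per library. Cells treated with THZ531 and with DMSO, or Kelly and Kelly E9R, could therefore not be compared, the depth per library is unknown, and no value has a replicate. As a check of the labelled cell type, HAND2, GATA3 and ISL1, transcription factors of adrenergic neuroblastoma, each had a peak at an annotated transcript end.

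Most human transcripts made by RNA polymerase II end by cleavage and polyadenylation. The machinery recognises a hexamer, most often AATAAA or its variant ATTAAA, a short way before the cleavage site, and the kinase CDK12 helps the polymerase to reach distant sites. Libraries primed with oligo(dT) capture such ends, but the primer can also anneal to A-rich stretches within a transcript, in genomic A tracts or in the tails of transposed elements. Alu elements, the most numerous short interspersed elements of the human genome, derive from 7SL RNA, the RNA of the signal recognition particle, and carry an A-rich tail. Processed pseudogenes are copies of mRNAs that were reverse transcribed and inserted with the hexamer and an A tract of the parent transcript.

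The following sequences show kinds of ends found among far intergenic peaks. Because the list has no strand, each peak has a forward reading, in which the 3′ end of the transcript is the right edge of the peak, and a reverse reading, in which it is the left edge. Each line gives, on GRCh38 and in 5′ to 3′ direction, the 100 bases before the 3′ end of a reading and the 50 bases after it. Capitals mark AATAAA and ATTAAA in the first 100 bases and the A of A-rich stretches in the last 50. The first 3 belong to the 10 strongest far peaks. The last was picked after its values were seen, as the strongest site-like peak (defined below) with a single copy outside those 10, and A-rich sequence lies before its 3′ end but not in the 50 bases after it.
End with an A tract, chr16:61258562-61258711, reverse strand: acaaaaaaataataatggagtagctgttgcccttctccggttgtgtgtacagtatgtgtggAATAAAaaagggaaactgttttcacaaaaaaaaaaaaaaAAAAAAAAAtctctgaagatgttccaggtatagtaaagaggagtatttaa
End similar to ENSG00000279865, chr10:127524784-127524933, forward strand: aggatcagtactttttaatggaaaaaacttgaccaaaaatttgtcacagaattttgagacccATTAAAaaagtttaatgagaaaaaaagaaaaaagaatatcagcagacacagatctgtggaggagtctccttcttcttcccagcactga
Purine repeat, chr22:12178591-12178740, reverse strand: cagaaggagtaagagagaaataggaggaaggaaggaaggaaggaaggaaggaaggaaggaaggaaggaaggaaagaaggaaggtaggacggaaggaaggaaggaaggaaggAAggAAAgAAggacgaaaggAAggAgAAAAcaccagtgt
Site-like end, chr3:127132735-127132884, reverse strand: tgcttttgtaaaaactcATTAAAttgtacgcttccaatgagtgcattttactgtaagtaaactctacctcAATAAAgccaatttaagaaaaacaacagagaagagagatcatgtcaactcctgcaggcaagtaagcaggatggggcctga

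Far intergenic peaks were low. The pileup, the number of extended reads over the summit that the peak calling kept, had a median of 6. Its quartiles were 5 and 9 and its maximum was 42. Whether duplicate reads were dropped is not given, so a pileup may be lower than the number of reads. A pileup of 5 or 6 was found in 48.6% of far peaks, in 32.6% of the 9327 intergenic peaks within 20 kb of a gene (near peaks), in 28.8% of the 94459 intronic peaks and in 7.62% of the 23507 peaks at annotated transcription end sites (TES peaks, summit from 200 bp before to 600 bp after a transcript end). In 51.6% of far peaks the local background was at the lowest value of the list, 0.190 reads, against 11.4% of intronic peaks. A −log10 q of at least 5 was reached by 1269 far peaks or 60.3%, where 73.4% of all peaks reached it. The far share was lower than that of near peaks (difference −5.78 percentage points, 95% Newcombe interval −8.10 to −3.50) and than that of intronic peaks (−7.56 points, −9.69 to −5.47). With distance taken from protein-coding and lncRNA genes only, the difference from near peaks was −1.50 points and no longer passed the threshold. The median −log10 q was 6.22 in far, near and intronic peaks alike. A pileup of 5 on the lowest background gave a −log10 q of 4.81, just below 5. It was found in 23.1% of far, 9.01% of near and 5.18% of intronic peaks. Only 43 far peaks, or 2.04%, had a pileup of 20 or more, compared with 38.2% of TES peaks. All intervals on shares and densities given here cover counting error only, and neighbouring peaks are not independent.

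Peaks became sparser with distance from genes, without a step at the 20 kb border. The 594 Mb of sequence that met the same distance rule held 3.54 far peaks per Mb (exact 95% Poisson interval 3.39 to 3.70), against 17.6 per Mb in near intergenic sequence and 59.4 per Mb in introns. With TES windows left out, density fell from 42.8 per Mb in the first 1 kb outside genes to 8.92 per Mb at 10 to 20 kb. TES windows themselves held 367 peaks per Mb. Within the far sequence it was 6.11 per Mb at 20 to 30 kb, 4.12 at 30 to 50 kb, 3.56 at 50 to 100 kb, 2.45 at 100 to 200 kb and 1.10 at 200 to 500 kb. Beyond 500 kb the density was 0.0588 per Mb, from 3 peaks. The median far peak lay 40.6 kb from its nearest gene, while the median far position of the genome, on a grid of 1 kb, lay 59.5 kb away.

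**Figure D1:**
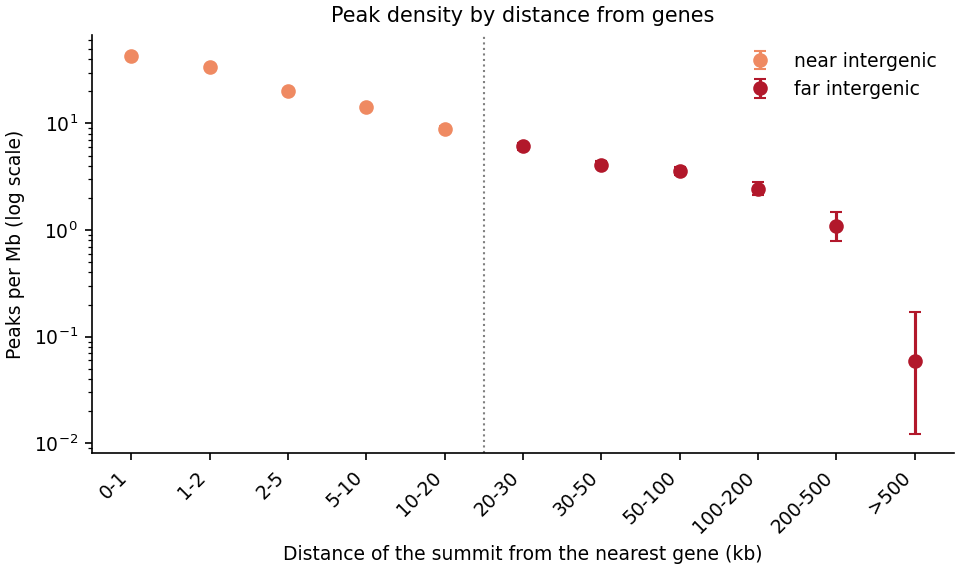
Peaks per Mb (log scale) by distance of the summit from the nearest gene in kb, for near (left of the dotted line) and far intergenic peaks; bars are exact 95% Poisson intervals. With TES windows left out, density fell from 42.8 per Mb next to genes to 1.10 per Mb at 200 to 500 kb, with no step at 20 kb.

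Just inside the border lay peaks at 20018 bp from DOK2, 20025 bp from ENSG00000280047 and 20035 bp from ENSG00000290397, with pileups of 7, 11 and 11. Just outside lay peaks at 19981 bp from LINC00350, 19978 bp from LINC00158 and 19961 bp from NAPG, with pileups of 9, 11 and 8. The pileups on both sides of the border overlapped.

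Chromosome 22 stood apart, with 14.7 far peaks per Mb (11.8 to 18.2), whereas the other chromosomes had between 1.38 (chromosome 13) and 4.93 (chromosome 17) per Mb. Its first 16 Mb, next to the centromere, held 55 of its 85 far peaks, and the central sequence of 43 of these 55 occurred more than once in the assembly. The rest of chromosome 22 was as dense, at 13.8 per Mb over 2.17 Mb, and had 5 such peaks among 30. The X chromosome was low, at 1.53 per Mb (1.20 to 1.91), and chromosome 22 also had 106 intronic peaks per Mb against 35.7 on X.

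A-rich sequence was the most common feature of far intergenic peaks. A reading was called A-rich when the 50 bp after its 3′ end held 6 A in a row or 7 A among 10 bases. In either reading, 1840 far peaks (87.5%) were A-rich, compared with 77.1% of all peaks and with 44.6% of windows of the same size placed 1 kb to the right of each far peak. In 1012 pairs only the peak was A-rich and in 111 pairs only the window (exact McNemar test, two-sided, p = 1.58e-182). The A-rich sequence lay on 1 side only in 1672 peaks or 79.5%. The far share was 10.7 points above that of near peaks (8.99 to 12.3) and did not differ detectably from that of intronic peaks (−0.31 points, −1.81 to 1.05). A longer stretch, 25 A allowing 3 mismatches, followed 14.8% of far peaks, 11.4% of near peaks, 9.39% of intronic peaks and 1.60% of TES peaks, against 0.333% of the shifted windows.

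AATAAA or ATTAAA lay in the 100 bp before the 3′ end of either reading in 754 far peaks, or 35.8%, where 43.1% of all peaks and 26.9% of shifted windows had it (540 pairs with the peak only and 352 with the window only, exact McNemar test, p = 3.30e-10). TES peaks had it in 73.9%, near peaks in 43.5% and intronic peaks in 34.1%. The far share was lower than the near share (−7.68 points, −9.94 to −5.38) and its difference from the intronic share, 1.73 points, had an interval that included 0 (−0.32 to 3.82). Searched before the summit in place of the edge of the peak, the difference from shifted windows turned from 8.94 to −10.7 points, and beyond 50 kb from genes it was 4.30 points and no longer passed the test. The study searched 12 hexamers. Beside the canonical forms there are variants that keep the final TAAA, namely AGTAAA together with CATAAA, then TATAAA as well as GATAAA, and also ACTAAA. Others change the second part of the hexamer, such as AATATA along with AATACA, or the form AATGAA and its relative AATAGA, and there is AAGAAA as well. They may overlap each other and A-rich sequence. At least 1 of the 12 occurred in 58.2% of far peaks and in 67.1% of shifted windows (396 and 584 discordant pairs, exact McNemar test, p = 2.08e-09). Without the peaks that align to 7SL RNA, described below, this difference reversed to 8.09 points in favour of the peaks, and in single-copy peaks it was −2.76 points and no longer passed the test.

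The position of AATAAA showed 2 maxima in far peaks. It started 21 to 25 bp before the 3′ end 4.02 times per 100 readings, against 0.713 times in the shifted windows, and the maximum of TES peaks, 9.51 per 100, lay in the same 5 bp. A second maximum lay at the 3′ end itself, with 4.49 starts per 100 readings at 1 to 5 bp before it. TES peaks had 0.819 per 100 there. Both maxima were shared with near and intronic peaks, which had 5.25 and 3.07 per 100 at 21 to 25 bp. At 1 to 5 bp they had 2.96 and 2.86.

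**Figure D2:**
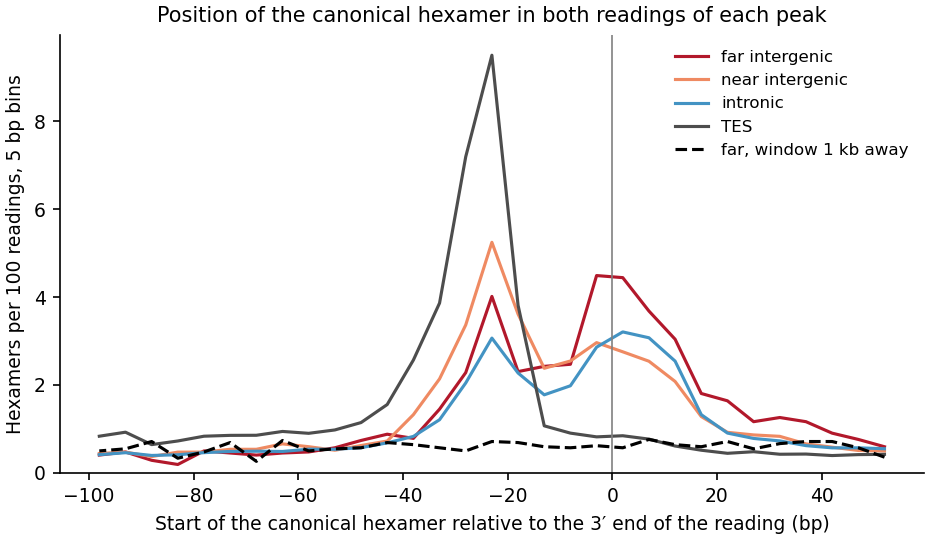
Starts of the canonical hexamer AATAAA per 100 readings in bins of 5 bp, by position relative to the 3′ end of the reading in bp (0 is the edge of the peak), for 4 classes of peaks and for windows 1 kb from far peaks (dashed). Far peaks had a maximum 21 to 25 bp before the end, at the place of the TES maximum, and another at the end itself. Near and intronic peaks had both as well.

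A reading was called site-like when AATAAA or ATTAAA started 10 to 40 bp before its 3′ end and no A-rich sequence followed. This held for 302 far peaks, or 14.4% (95% Wilson interval 12.9 to 15.9), for 22.1% of near peaks, 12.5% of intronic peaks, 51.6% of TES peaks and 21.3% of all peaks. Shifted windows were site-like in 6.18% (281 against 109 discordant pairs, exact McNemar test, p = 1.29e-18). The far share was lower than the near share (−7.70 points, −9.37 to −5.93) and 1.82 points higher than the intronic share (0.369 to 3.40), which did not hold beyond 50 kb from genes (0.487 points). Of the 302 site-like far peaks, 189 had A-rich sequence in the last 30 bp before the end, inside the peak. TES peaks had it in 53.8% of their site-like members, and AATAAA with neighbouring A can itself meet this criterion. Without these, 5.37% of far, 8.80% of near, 4.97% of intronic and 23.8% of TES peaks were site-like.

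**Figure D3:**
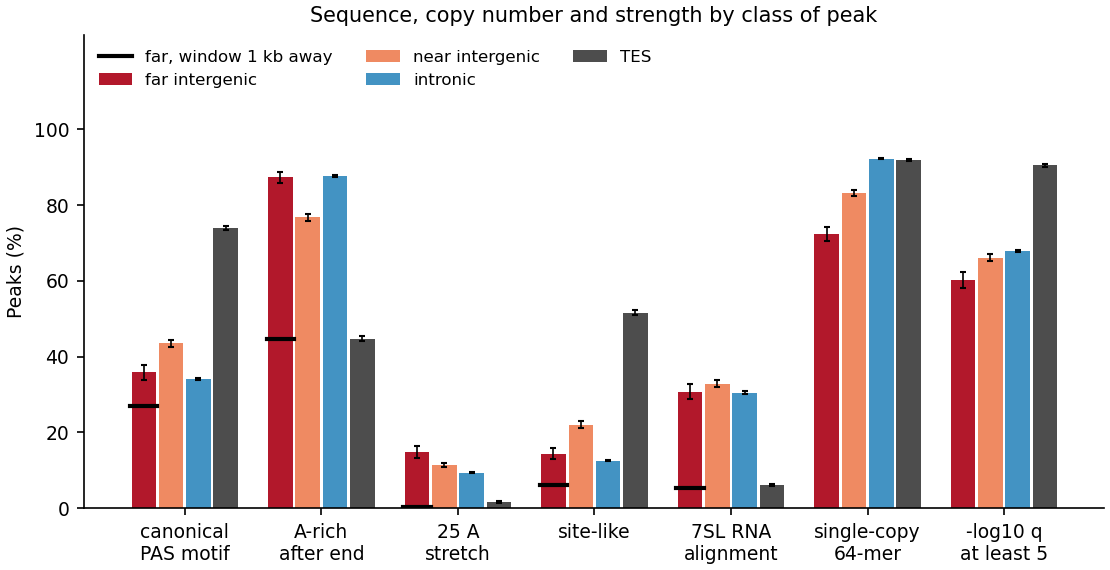
Share of peaks in % with a canonical polyadenylation (PAS) motif (AATAAA or ATTAAA), A-rich sequence, a stretch of 25 A, a site-like reading, an alignment to 7SL RNA, a single-copy central 64-mer and −log10 q values of 5 or more, by class; error bars are 95% Wilson intervals and black lines mark windows 1 kb from far peaks. Far peaks were near intronic peaks in A-rich sequence (87.5% and 87.8%) and lowest in single-copy sequence (72.4%).

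Sequence similar to 7SL RNA, the ancestor of Alu elements, was found in 645 far peaks or 30.7%, compared with 23.4% of all peaks and 5.37% of the shifted windows of far peaks (598 against 66 discordant pairs, exact McNemar test, p = 3.49e-108). The share was 32.9% in near peaks (far minus near −2.24 points, −4.40 to −0.022), 30.5% in intronic peaks (0.13 points, −1.83 to 2.15) and 6.11% in TES peaks. The median identity to 7SL RNA was 86.8%. These peaks were A-rich in 97.8% and site-like in 1.09%, while the other 1459 far peaks were A-rich in 82.9% and site-like in 20.2%. Where the A-rich sequence lay on 1 side, it was on the strand of 7SL RNA in 611 of 614 peaks, the side on which an Alu element has its tail. Their median pileup, 6, was that of the other far peaks.

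Base composition differed between these kinds. Peaks aligned to 7SL RNA had a median GC content of 55.1% and the others 37.6%. Of 230 far peaks below 30% GC, 36.5% were site-like and 1 aligned to 7SL RNA. Of 512 peaks from 50 to 60% GC, 1.37% were site-like and 74.8% aligned to 7SL RNA. Intronic peaks were much alike: 35.3% of those below 30% GC were site-like. From 50 to 60% GC, 70.4% of intronic peaks aligned to 7SL RNA. Above 60% GC there were 206 far peaks and 0 site-like readings, a count that is fixed in part by the A and T of the hexamer.

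**Figure D4:**
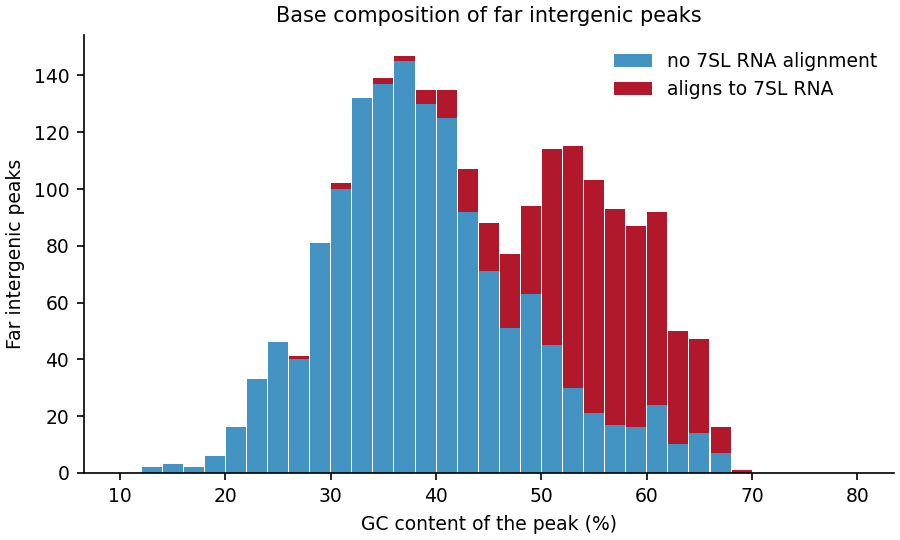
Number of far intergenic peaks by GC content of the peak in bins of 2%, stacked by whether the peak aligns to 7SL RNA. Aligned peaks (median 55.1%) made up most of the bins above 50% GC and the others had a median of 37.6%.

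Divided into kinds that do not overlap, 645 far peaks aligned to 7SL RNA, 295 others (14.0%) were site-like, 1093 others (51.9%) were A-rich without either, and 71 (3.37%) had none of these features. The site-like kind had the highest share with a −log10 q of at least 5, at 67.1%, against 59.7% of the kind aligned to 7SL RNA and 58.7% of the A-rich kind. The kind with none of the features lay closest to genes, at a median of 31.1 kb.

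Far intergenic peaks also had the lowest share of single-copy sequence among the classes. The 64 bases at the centre of a peak occurred once in the assembly, both strands counted, in 1523 far peaks or 72.4%, against 91.7% of all peaks. This share was lower than in near peaks (−10.8 points, −12.9 to −8.77) and than in intronic peaks (−19.9 points, −21.8 to −18.0). It fell with distance, from 75.3% at 20 to 30 kb to 62.4% at 100 to 200 kb and 44.2% at 200 to 500 kb. In 72 far peaks the 64 bases occurred more than 1000 times, up to 3087 times, and in these 31.9% of peaks had a stretch of 25 A and 26.4% aligned to 7SL RNA. The authors kept reads with several possible origins up to a maximum number, and reads with more were not kept. A peak in repeated sequence may therefore hold reads of another copy, and how many was not tested.

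Far peaks matched known transcripts of other loci more often than shifted windows did. At 90% identity over 90% of the peak, 875 far peaks (41.6%) matched a transcript of GENCODE release 44, against 12.8% of the windows (exact McNemar test, 706 pairs with the peak only, p = 1.65e-112), a comparison added after the values were seen. Of the 875, 741 matched more than 5 genes and 462 (52.8%) aligned to 7SL RNA. In pairs in which neither the peak nor the window aligned to 7SL RNA, the shares were 28.9% and 12.6% (285 and 57 discordant pairs, exact McNemar test, p = 1.34e-37). Near and intronic peaks were not searched. Of the 875, 87 peaks matched 1 to 5 genes without similarity to 7SL RNA, 42 of them best in a protein-coding transcript. Apart from ACTB, which encodes β-actin, examples picked after their values were seen were HSPE1, a mitochondrial chaperonin (98.1% identity, chr20:7718421-7718533, pileup 17), YWHAB, a 14-3-3 protein (99.02%, chr9:20094614-20094721, pileup 13), and MT-RNR2, the large mitochondrial ribosomal RNA (95.3%, chr6:61574098-61574272, pileup 13). Whether reads came from the far locus or from the parent gene was not tested.

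Of the 10 strongest far peaks, 7 had more than 1 copy, 8 were A-rich in at least 1 reading, 3 were site-like and 3 aligned to 7SL RNA. All 3 site-like readings had A-rich sequence in the last 30 bp before the end, inside the peak. The strongest, chr22:12178641-12178785, had a pileup of 42, a 26.9-fold enrichment and a −log10 q of 57.3. It lay 268 kb from the lncRNA ENSG00000290397, and the purine repeat of its reverse reading is shown above. The peak at chrX:44794792-44794922 (pileup 36, −log10 q 52.2) was 97.5% identical to ACTB over 92.4% of its length and lay 21.8 kb from RN7SL291P. The peak at chr13:104228658-104228800 (pileup 32, −log10 q 48.5) was 99.2% identical to BCYRN1, a neuronal RNA polymerase III transcript that derives from an Alu element, occurred 10 times at its centre and lay 94.5 kb from ENSG00000287734.

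The peak at chr19:47920363-47920529 (pileup 40, −log10 q 46.1, 19 copies) lay 34.1 kb from SULT2A1, a hydroxysteroid sulfotransferase. It belonged to a cluster of 8 far peaks with pileups of 8 to 40, none with a single-copy centre, between SULT2A1 and BSPH1. RefSeq places SNAR genes, which encode small noncoding RNAs that bind the protein NF90, over 4 of the 8 summits. The peaks chr4:132528092-132528217 (pileup 30, 62.9 kb from LINC01256) and chr10:127524756-127524883 (pileup 29, 24.5 kb from NPS, the gene of neuropeptide S) matched the same unconfirmed transcript, ENSG00000279865, at 92.7% and 91.9% identity. Both were site-like with ATTAAA, and both had A-rich sequence in the last 30 bp before the end.

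Of the remaining members of the 10, that on chromosome 3 also matched transcripts. The peak chr16:61258612-61258745 (pileup 29, 2 copies) lay 203 kb from RPS27AP16 and read, on the reverse strand, AATAAA followed by a long A tract. The peak chr4:59271946-59272073 (pileup 28, 1 copy) lay 91.6 kb from ENSG00000286097. The peak chr3:5821419-5821548 (pileup 26, 21 copies, 90.7% identity to 7SL RNA) lay 141 kb from ENSG00000229642 and matched 932 genes, best ENSG00000279175 at 98.5% identity. The peak chr7:35418425-35418733 (pileup 29, 1 copy) was 309 bp wide, lay 38.8 kb from ENSG00000286526 and was A-rich in neither reading.

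The 5 peaks farthest from genes were all low. The farthest, chr1:125092304-125092403, lay 3512 kb from LINC01691 and had a pileup of 5 and 6 copies. The next ones were chr21:12380602-12380701 (619 kb from ENSG00000229306, pileup 5), chr2:93598846-93598945 (595 kb from ENSG00000291142, pileup 5), chr3:145051232-145051332 (472 kb from LARP7P4, pileup 6) and chr13:82096703-82096803 (406 kb from PTMAP5, pileup 6). The first 3 lie beside centromeres, the last 2 aligned to 7SL RNA, and only that on chromosome 13 had a single-copy centre.

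Up to 200 kb from protein-coding genes, far sequence was denser in peaks beside genes with a TES peak than beside the others. It was also denser past the ends of genes with a TES peak than before their starts. These comparisons were chosen after the values were seen. At 20 to 50 kb from the nearest protein-coding gene, far sequence past the end of genes with a TES peak held 283 peaks in 21.9 Mb, or 12.9 per Mb (11.4 to 14.5), spread over 171 genes with at most 6 peaks each. Before the start of such genes it held 6.65 per Mb (5.71 to 7.70). Beside genes without a TES peak it held 4.13 per Mb past the end (3.21 to 5.23) and 3.96 per Mb before the start (3.10 to 4.97), whose intervals overlap. At 50 to 100 kb the values were 7.29 and 4.36 per Mb for genes with a TES peak, and 2.55 and 3.01 for genes without. At 100 to 200 kb they were 5.75 and 3.34, and 3.07 and 2.76. Over all far sequence, also that beyond 200 kb, they were 5.07 and 3.69, and 2.23 and 2.82. No values were computed for sequence beyond 200 kb alone. Over genes of all types, the nearest gene ended toward the peak in 53.9% of far peaks (51.8 to 56.1) and toward 52.4% of far positions, a difference that was not detectable.

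**Figure D5:**
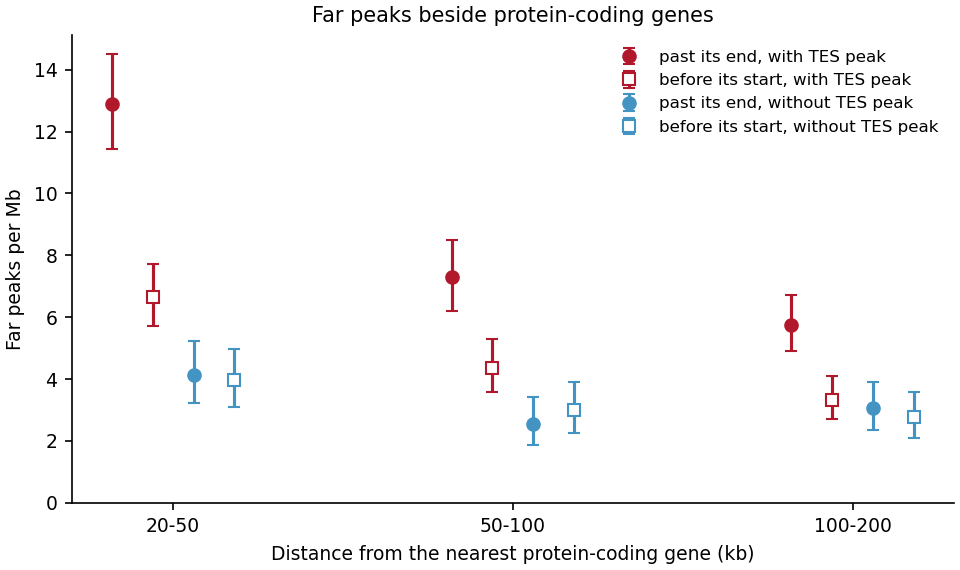
Far intergenic peaks per Mb of far sequence by distance from the nearest protein-coding gene in kb, past its end (circles) or before its start (squares), for genes with (red) and without (blue) a TES peak; bars are exact 95% Poisson intervals. At 20 to 50 kb the density was 12.9 per Mb past the ends of genes with a TES peak and 6.65 per Mb before their starts.

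The reading of the sequence also followed these genes. Among far peaks up to 100 kb past the end of their nearest protein-coding gene and site-like in 1 reading, that reading lay on the strand of the gene in 68 of 93, or 73.1% (63.3 to 81.1). It did so in 63 of 78 where the gene had a TES peak (80.8%, 70.7 to 88.0) and in 5 of 15 where it had none (33.3%, 15.2 to 58.3). Before the start of genes the share was 53.8% (28 of 52, 40.5 to 66.7). With only the strongest such peak per gene it was 74.3% past ends (52 of 70, 62.97 to 83.1). For A-rich sequence on 1 side the share was 64.6% past ends (281 of 435, 59.99 to 68.9) and 55.2% before starts (49.8 to 60.4).

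In all, 446 far peaks lay up to 100 kb past the ends of 235 protein-coding genes with a TES peak. The largest numbers, seen here without a test, were 11 peaks 21.5 to 90.4 kb past GFRA2, a receptor of the glial cell line-derived neurotrophic factor family, and 11 peaks 55.4 to 95.9 kb past RAB28, a small GTPase. All 11 of each had single-copy centres, with pileups of 5 to 13 past GFRA2 and of 5 to 7 past RAB28. Their A-rich side, where it was 1, lay on the strand of the gene in 6 of 8 and 8 of 9 peaks. BUB3, a component of the spindle checkpoint, had 7 peaks (5 of 7 on its strand), UBE3D had 6 (6 of 6) and CWF19L2 had 6 (5 of 5). ACTR3B had 6 (3 of 3). Such peaks lay mostly on the opposite strand past the other genes with at least 6 peaks. These were RASSF9 (0 of 8 on its strand) and DYNC2H1, which encodes a dynein heavy chain of cilia (0 of 5). The others were PDXDC1 (1 of 7) and APIP, an enzyme of methionine salvage (1 of 6). Single-copy centres were found in 0 of 9 peaks past PDXDC1, 9 of 9 past RASSF9, 6 of 7 past APIP and 5 of 6 past DYNC2H1. Over these 10 genes the share on the strand of the gene was 35 of 64, or 54.7%, and over all genes with a TES peak it was 229 of 341, or 67.2% (62.0 to 71.9).

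Far peaks were clustered. Chained by summit gaps of at most 10 kb, 1110 peaks (52.8%) stood alone and 330 (15.7%) lay in 46 clusters of 5 or more. Clustered peaks had a median pileup of 8, single-copy centres in 83.3%, site-like readings in 17.3% and similarity to 7SL RNA in 23.9%. Peaks that stood alone had a median pileup of 6, single-copy centres in 63.6%, site-like readings in 11.5% and similarity to 7SL RNA in 36.1%.

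The largest cluster held 14 peaks over 41.5 kb at chr3:117454977-117496488, with pileups of 4 to 16 and single-copy centres in 13. It lay 316 kb from LSAMP, a limbic cell adhesion molecule, and 47.8 kb from the small RNA gene RNU6-1200P. The next held 12 peaks, all with single-copy centres, over 39.9 kb at chr5:85695333-85735224, between ENSG00000250874 and RPS2P25, with pileups of 5 to 13. Of the clusters of 11, the one with the highest −log10 q (17.2) spanned chr8:54988158-55031592, between RP1, a photoreceptor gene, and ENSG00000286348, with a median pileup of 12. Another spanned chr6:112881401-112926524, between ENSG00000271498 and RNU6-1163P, and 10 of its summits lay in RefSeq lncRNA genes. The fifth spanned chr12:85401186-85448327, between LINC02820 and ENSG00000257855. All 11 of its summits lay inside the longer RefSeq model of LINC02820.

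A block of chromosome 3 from 117 to 118 Mb, which holds the largest cluster, was singled out after the values were seen. It had 60 far peaks in 0.453 Mb of far sequence, or 132 per Mb. This density was not tested, and a high value follows in part from the choice. Of the 60 peaks, 57 had single-copy centres and 2 were site-like, with pileups of 3 to 18 and a median of 6.5. The block had 3 clusters of 5 or more, with 33 peaks among them.

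The RefSeq annotation of GRCh38.p14 covered 480 far peaks, or 22.8%, with genes, although these genes filled 11.2% of far positions. The density was 7.22 per Mb inside RefSeq genes and 3.08 per Mb outside. RefSeq lncRNA genes held 391 summits and protein-coding genes 66. Among 34 such protein-coding genes, RPS6KC1, a kinase-like protein, had 7 far peaks, TBC1D19 had 6 and COL5A2, a collagen chain, had 5, inside models that ran longer than those of GENCODE. LINC02820 and LOC105369617 on chromosome 12 and LOC124909415 on chromosome 3 had 14 each.

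A list of 21 transcription factor and marker genes of adrenergic neuroblastoma had little far sequence beside it. Their far sequence amounted to 0.184 Mb and held 3 peaks, or 16.3 per Mb with an interval of 3.36 to 47.6 that includes the 3.54 per Mb of all far sequence. GATA3, a transcription factor of sympathetic neurons and T cells, had 2 far peaks past its end, 22.01 kb away with a pileup of 14 and 43.0 kb away with a pileup of 6. LMO1, a transcriptional cofactor, had 1 far peak 56.5 kb before its start, with a pileup of 6. All 3 had single-copy centres and none was site-like.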

How the data were processed

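Libraries were made with QuantSeq 3′ REV from Kelly and Kelly E9R cells and, per the study's methods, trimmed with BBDuk, mapped with STAR (2.5.1b in the submitters' processing notes) to GRCh38 and merged. MACS2 (2.1.1) then called peaks without a model, taking 100 bp from each read start without shifting it. The study's methods next describe a filter against false positive peaks. It removed peaks without any of the study's hexamers upstream that had a stretch of 25 A within 50 bp downstream. Up to 3 mismatches were allowed in the stretch, and the reads of removed peaks were discarded. This filter was not applied here, and whether the deposited list precedes or follows it was not tested. In the list used here, a stretch of 25 A followed 14.8% of far peaks in either reading. How many of these lacked a hexamer was not counted. A read could map to several places, up to a maximum number. The genome size, the handling of duplicates and the q threshold are not given in the sources used here. The deposited list holds a score, a fold enrichment (a ratio of pileup to background), a −log10 p and a −log10 q per peak, as the authors deposited them, and 0 columns per library and 0 strands. Coverage tracks were not used here. Reads without molecular identifiers are not independent molecules.

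Pileup and background were recovered from the deposited fold and −log10 p through MACS2's formulas, and a whole pileup met both within 0.001 for 100% of peaks. Gene distances came from GENCODE release 44. Classes were set by summit, in the order TES, exon, intron. Copies of the central 64 bases were counted over the assembly. Similarity was searched with BLAST 2.17.0+, to 7SL RNA at an E value of at most 1e-5 and to GENCODE transcripts at 90% identity and coverage. Python 3.11.15, pandas 2.3.3 and scipy 1.17.1 were used, and the scripts were tested on simulated data. Shifted windows, of which 3 held undetermined bases, were compared by exact McNemar tests and classes by 95% Newcombe intervals.

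Peaks named were the 10 with the highest −log10 q, the 5 farthest, 3 on each side of the border and the 5 largest clusters (ties by −log10 q), with their nearest or flanking genes. Some sequences are not reported here. The members and lists were chosen with earlier results of these data known.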

Additional observations from a re-analysis of the deposited data

How the results depend on the processing

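No paired analysis was possible because all libraries were merged into 1 list. Of 117 alternative values over 15 results, 92 were called the same. They kept direction and side of the threshold or, for the number of far peaks, stayed within a fixed factor of the main count. Alternatives restricted to single-copy peaks, without peaks aligned to 7SL RNA, or without A-rich sequence in the last 30 bp were chosen after seeing the data.

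The number of far peaks was 3711 beyond 10 kb, 837 beyond 50 kb, 3915 with distance from protein-coding and lncRNA genes only and 1269 at a −log10 q of at least 5. For the 12 hexamers, the peak minus window difference was −2.76 points in single-copy peaks (no longer past the threshold) and 8.09 points without 7SL RNA alignments (reversed). For AATAAA or ATTAAA it was 4.30 points beyond 50 kb (no longer past the threshold) and −10.7 points when searched at the summit (reversed).

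With distance from protein-coding and lncRNA genes only, the far minus near difference at a −log10 q of at least 5 was −1.50 points, no longer past the threshold. The far minus intronic difference for AATAAA or ATTAAA passed the threshold beyond 10 kb (3.05 points), with protein-coding and lncRNA genes only (7.23), at a −log10 q of at least 5 (4.25), in single-copy peaks (4.28) and without 7SL RNA alignments (3.64), and turned to −0.30 points beyond 50 kb. For A-rich sequence it passed beyond 10 kb (−2.15 points) and with protein-coding and lncRNA genes only (−4.20), and reversed beyond 50 kb (1.72) and for a stretch of 25 A (5.39). For site-like readings it no longer passed beyond 50 kb (0.487 points), with all 12 hexamers (0.598) and without A-rich sequence in the last 30 bp (0.399). The share of nearest genes that end toward the peak exceeded that of far positions beyond 10 kb (4.50 points), for protein-coding genes (3.26) and without 7SL RNA alignments (2.94). The cause of these changes was not tested.

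Low pileups limit each value: 485 far peaks rest on a pileup of 5 over the lowest background. The list holds no strand and no value per library, so it gives neither the transcribed strand nor a response to THZ531.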
